A study of Mus musculus with 18 samples.

Results

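The question addressed here was whether the effect of losing NRF2 on liver RNA was the same 2 days and 4 weeks after diethylnitrosamine (DEN), a carcinogen that is activated in hepatocytes and forms DNA adducts there. The measure was a difference of differences, the KO minus WT difference at 2 days (2D) minus the KO minus WT difference at 4 weeks (4W), on the log2 scale. It used 12 of the 18 RNA sequencing libraries of the study, chosen by their labels. They formed 4 groups of 3: mice labelled wild type (2D WT) and mice labelled knockout (2D KO) at 2 days after DEN, and the same genotypes at 4 weeks (4W WT and 4W KO). The 6 libraries of 36 weeks (36W) entered the fit through the shared estimate of the spread, the scaling and the choice of genes tested. All mice were of a mixed B6;129P2 background and all had received DEN, so no group shows the liver without it. The age and sex of the mice, the deleted part of the gene and the way the knockout was made are not given in the sources used here.

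NRF2, encoded by Nfe2l2, is a transcription factor that is held in check by KEAP1 and switches on antioxidant, glutathione and detoxification genes when electrophiles or oxidants reach the cell. Cells answer misfolded proteins with 2 other programmes, the heat shock response of the cytosol, driven by HSF1, and the unfolded protein response of the endoplasmic reticulum (ER), driven by the sensors IRE1, ATF6 and PERK. A hepatocyte secretes most plasma proteins and depends on both.

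A positive difference means that the level in KO relative to WT was higher at 2D than at 4W, and a negative difference the reverse. Levels are given as CPM, a gene's count relative to the scaled total of its library, always in the order of replicates 1, 2 and 3. Genes were called at a Benjamini-Hochberg adjusted p under 0.05 in the quasi-likelihood test of edgeR over all genes tested, and every adjusted p below comes from that test. One library, 2D WT replicate 3, stood apart from its group. Over all genes it deviated from its group with an SD of 0.595 (log2), against 0.266 to 0.43 in the other 11 libraries, and its markers of collagen-producing and stellate cells summed to 7064 CPM, against 557 to 2119 CPM in the other 11. Its bile duct markers summed to 538 CPM, against 140 to 236 CPM, with Krt19 at 65.7 CPM and Epcam at 53.8 CPM. Counts are therefore given with and without it, and for main genes the difference without it stands in square brackets. The 68 named genes called with all libraries were all called again in the same direction without it. The 2D material is labelled liver tumor and the 4W material liver tissue, while one extraction text speaks of removed tumors for all. The title tags of the 2D libraries begin with B and those of 4W with A, with no meaning stated, so that time and tag cannot be told apart. Whether libraries come from separate animals is not stated, so p-values measure only the spread between these libraries. The libraries summed to 16.3 to 19.6 M counts, and a count of 3, taken as the floor of detection, equalled 0.153 to 0.184 CPM.

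The genotype labels were checked first. Nfe2l2 counts stood at 73.1, 70.2 and 76.1 CPM in 2D WT, 43.2, 66.3 and 67.8 CPM in 2D KO, 109, 109 and 90.0 CPM in 4W WT and 54.0, 55.1 and 56.2 CPM in 4W KO. Every KO library lay below every WT library of its time, and reads remained in all KO libraries. The difference between times was 0.59 ± 0.20 (log2, SE, adjusted p = 0.165). Nqo1, a quinone reductase that is a classical NRF2 target, stood at 29.1, 26.3 and 14.2 CPM in 2D WT and at 2.27, 1.55 and 1.37 CPM in 2D KO. At 4W it stood at 11.2, 17.5 and 16.5 CPM in WT and at 4.17, 2.11 and 2.24 CPM in KO. It was lower in KO at both times, with no call on the difference (−1.33 ± 0.88, adjusted p = 0.473).

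The effect of the knockout differed between the times in 199 of 14877 genes tested, 1.34%, with a positive difference in 150 (1.01%) and a negative one in 49 (0.329%). Among the 150 positive genes the effect had opposite signs at the 2 times in 141, with a median of 0.376 at 2D and −0.715 at 4W. Of these 150, 107 were called in KO against WT at 4W and 18 at 2D, 2 of them at both, and 27 at neither. In 110 the effect was the larger one at 4W. Among the 49 negative genes the effects had opposite signs in 46, with a median of −0.693 at 2D and 0.859 at 4W. Opposite signs enlarge the difference that the call tests, and their share over all genes was not counted. The counts of opposite signs therefore only describe the called genes. For comparison, KO against WT itself was called in 101 genes at 2D (0.679%; 65 higher, 0.437%, and 36 lower, 0.242%) and in 439 at 4W (2.95%; 148 higher, 0.995%, and 291 lower, 1.96%). Scaling by library size alone moved the median KO effect of all genes at 2D from −0.029 to −0.138 and turned the split of the difference from 150 positive and 49 negative to 79 and 46. Under that scaling the splits of KO against WT were 20 higher and 89 lower at 2D, against 65 and 36, and 84 and 309 at 4W, against 148 and 291.

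Without 2D WT replicate 3 the difference was called in 531 of 15153 genes, 3.5%, of which 342 were positive (2.26%) and 189 negative (1.25%). Of the 199 genes called with all libraries, 149 positive and 46 negative genes were called again in the same direction. KO against WT at 2D was then called in 628 genes (4.14%), 367 higher (2.42%) and 261 lower (1.72%), and with library size alone in 170 and 374. The effect was now the larger one at 4W in 166 of the 342 positive genes and at 2D in 176. These 342 genes are a different set from the positive genes called with all libraries. The counts therefore do not show that the larger effect moved to another time within a gene. With 2D WT replicate 3 kept in, the calls at 2D rested on every other library of that time. KO against WT at 2D was called in 3 and 2 genes without 2D WT replicates 1 and 2. It was called in 3, 2 and 4 genes without 2D KO replicates 1, 2 and 3. The count of 199 itself moved by more than 1.5 times without any 1 of 9 libraries: it was 85 without 2D WT replicate 2, 106, 102 and 109 without 2D KO replicates 1, 2 and 3, 104 and 82 without 4W WT replicates 2 and 3, 126 and 83 without 4W KO replicates 2 and 3, and 531 without 2D WT replicate 3.

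**Figure D1:**
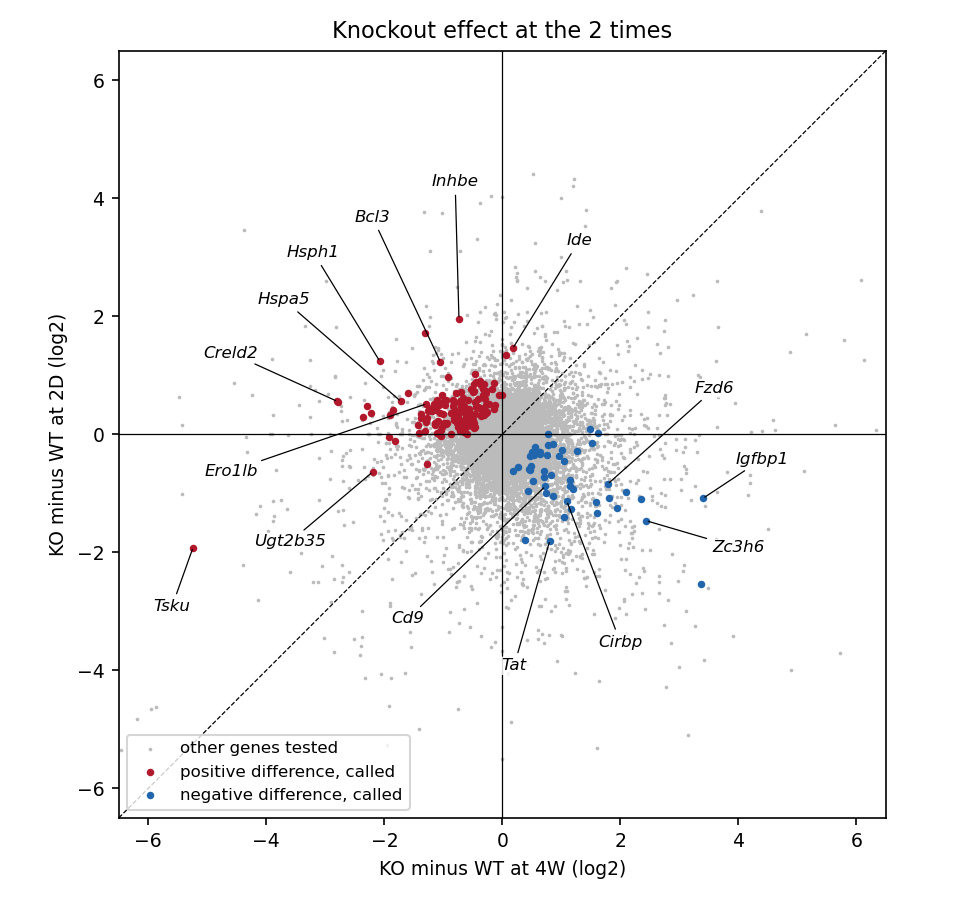
KO minus WT at 2D (vertical axis, log2) against KO minus WT at 4W (horizontal axis, log2) for the genes tested with all libraries, with the diagonal of equal effects dashed. Red points are the 150 genes with a positive difference, most of them to the upper left, and blue points the 49 with a negative one, to the lower right. 6 genes, 0 of them called, lie outside the axes.

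The order of the groups was described for the called genes, with no test, since the call uses the same libraries. In 111 of the 150 positive genes all 3 libraries of 4W WT lay above the other 9 libraries, which held for 6.84% of all genes tested, and in 55 the 3 libraries of 2D WT lay below the other 9 (5.71% of all genes). In 31 of the 49 negative genes 4W WT lay below the other 9 libraries (4.39% of all genes), and in 16 the 2D WT libraries lay above them (3.85%). Among the positive genes the most frequent order was thus a level in 4W WT that the other 3 groups did not reach.

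Several of these genes act in protein folding in the ER. Of 21 genes in a list of ER chaperones and unfolded protein response genes, 11 had a positive difference and 0 a negative one. Over all genes tested, 1.01% were positive and 0.329% negative. The list's median difference was 1.09, against −0.05 over all genes. The list's median KO effect was 0.33 at 2D, where 0 members were called. At 4W it was −0.82, and 12 members were called lower in KO, beside 1.96% of all genes. Without 4W WT replicate 3 or 4W KO replicate 3 this count was 7. The count of differences was 13 without 2D WT replicate 3, with a median of 1.2, beside 2.26% of all genes called positive. It was 7 without 2D WT replicate 1 or 2, 2D KO replicate 1 or 3, 4W WT replicate 3 or 4W KO replicate 3.

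Promoters of the called members were read for a match to the ER stress element, CCAAT and CCACG with 9 bases between them, on either strand. Of the 13 genes called with or without 2D WT replicate 3, 11 had a promoter in the RefSeq table of GRCm38.p6, and 6 held a match (Syvn1, Creld2, Hspa5, Hsp90b1, Calr and Pdia6), as did 0.119% of the 32851 promoters of the same length. The promoters of Syvn1 (chr19:6046326-6046625, + strand) and Creld2 (chr15:88819396-88819695, + strand), the members with a promoter and the smallest p in either test, with or without 2D WT replicate 3, are shown from 250 bases before to 50 after the start site, with the matched letters in capitals. The match began 44 bases before the start site in Syvn1 and 126 bases before it in Creld2, where it lies on the opposite strand. A match describes the letters and does not show that a factor binds there. The list was made of ER chaperones and unfolded protein response genes, and its uncalled members were not read. The comparison with all promoters therefore says nothing about which genes had a different knockout effect.
Syvn1: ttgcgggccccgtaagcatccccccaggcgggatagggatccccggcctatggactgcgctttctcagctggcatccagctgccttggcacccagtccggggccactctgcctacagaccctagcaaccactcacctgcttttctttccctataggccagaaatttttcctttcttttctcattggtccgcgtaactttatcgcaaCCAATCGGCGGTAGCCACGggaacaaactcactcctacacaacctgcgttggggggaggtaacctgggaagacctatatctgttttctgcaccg
Creld2: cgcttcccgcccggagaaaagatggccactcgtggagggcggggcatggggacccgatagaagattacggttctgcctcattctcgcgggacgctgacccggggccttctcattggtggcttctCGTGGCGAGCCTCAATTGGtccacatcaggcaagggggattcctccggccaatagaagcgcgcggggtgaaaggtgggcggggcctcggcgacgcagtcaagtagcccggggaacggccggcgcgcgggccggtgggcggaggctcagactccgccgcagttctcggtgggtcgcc

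Hspa5 encodes BiP, the main HSP70 chaperone of the ER. It stood at 500, 477 and 627 CPM in 2D WT and at 737, 750 and 873 CPM in 2D KO, and at 1360, 1385 and 2055 CPM in 4W WT and 531, 452 and 476 CPM in 4W KO. KO libraries were the higher ones at 2D and the lower ones at 4W, without overlap at either time. The difference was 2.27 ± 0.33 [2.43] (adjusted p = 0.00311), with an effect of 0.56 at 2D (adjusted p = 0.262) and −1.72 at 4W (adjusted p = 0.00124). Hyou1, a large HSP70 relative that helps BiP release its nucleotide, stood at 90.9, 75.5 and 118 CPM in 2D WT, 123, 129 and 145 CPM in 2D KO, 343, 328 and 500 CPM in 4W WT and 78.9, 80.4 and 79.4 CPM in 4W KO. Its difference was 2.77 ± 0.31 [2.98] (adjusted p = 0.000574). All 3 libraries of 4W KO lay within the range of 2D WT.

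Creld2, an ER-resident protein induced by ER stress, had the largest positive difference of the called genes named by rule. Its libraries stood at 19.3, 17.2 and 30.5 CPM in 2D WT, 26.1, 32.5 and 40.1 CPM in 2D KO, 62.1, 75.3 and 145 CPM in 4W WT and 14.4, 14.1 and 12.2 CPM in 4W KO. The difference was 3.35 ± 0.48 (adjusted p = 0.00311), and 3.67 without 2D WT replicate 3 (adjusted p = 0.00197). Replicate 3 of 4W WT was the highest library. The same library was the highest for Hspa5, Hyou1 and Manf, a small ER protein that is also secreted under ER stress. Manf stood at 47.1, 47.6 and 70.1 CPM in 2D WT, 67.3, 67.0 and 67.6 CPM in 2D KO, 159, 170 and 266 CPM in 4W WT and 42.9, 35.2 and 37.2 CPM in 4W KO, with a difference of 2.66 ± 0.36 [2.90] (adjusted p = 0.00238). With all libraries its KO and WT values overlapped at 2D.

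Among genes of ER-associated degradation, Syvn1 encodes the ubiquitin ligase HRD1 and Sel1l its partner. Syvn1 stood at 45.9, 52.2 and 49.5 CPM in 2D WT, 57.8, 68.2 and 70.7 CPM in 2D KO, 175, 198 and 265 CPM in 4W WT and 58.1, 61.8 and 56.0 CPM in 4W KO. Its difference of 2.27 ± 0.23 [2.30] and that of Ero1lb shared the smallest adjusted p of all genes (0.000179). The difference of Sel1l was 1.03 ± 0.18 [0.98] (adjusted p = 0.0113), with 118 to 138 CPM in 2D WT, 165 to 180 CPM in 2D KO, 212 to 252 CPM in 4W WT and 130 to 168 CPM in 4W KO. Ero1lb (chr13:12565883-12609526, + strand, mm10), an oxidase that feeds disulfide bonds to ER proteins, stood outside the list and was named after its values were seen. It stood at 16.6, 17.5 and 18.6 CPM in 2D WT, 24.3, 27.4 and 23.5 CPM in 2D KO, 118, 92.9 and 110 CPM in 4W WT and 47.1, 37.7 and 46.1 CPM in 4W KO. Its difference was 1.80 ± 0.17 [1.87], and its level in 4W KO, unlike that of Syvn1, stayed above every 2D library.

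The remaining called members were Pdia4, a disulfide isomerase, with a difference of 1.42 (adjusted p = 0.00902), Dnajb9 with 1.56 (adjusted p = 0.0341) and Dnajb11 with 1.14 (adjusted p = 0.0255), both co-chaperones of BiP, Hsp90b1, the HSP90 of the ER, with 1.09 (adjusted p = 0.0393), and Xbp1, the transcription factor whose RNA is spliced by IRE1, with 1.35 (adjusted p = 0.0428). When the 12 libraries were left out in turn these last 4 calls were often lost, always with the same sign. That of Dnajb9 held only without 2D WT replicate 3, 4W WT replicate 1 or 2, or 4W KO replicate 1, and that of Dnajb11 without those libraries or 2D KO replicate 2. The call of Hsp90b1 held only without 2D WT replicate 3 or 4W KO replicate 1. Xbp1 held only without 2D WT replicate 3 (1.71, adjusted p = 0.00449) or 4W KO replicate 2, and was also lost with library size alone. Calr and Pdia6 were not called with all libraries (0.86 and 0.98, adjusted p = 0.0502 and 0.151) and were called without 2D WT replicate 3 (0.91 and 1.25, adjusted p = 0.0386 and 0.0451). Calr was also called without 4W KO replicate 1 and with DESeq2 or limma-voom. Herpud1, an ER protein of the degradation machinery, went another way, at 208, 335 and 156 CPM in 2D WT, 161, 157 and 147 CPM in 2D KO, 376, 322 and 443 CPM in 4W WT and 187, 150 and 179 CPM in 4W KO. It was lower in KO at 4W (−1.15, adjusted p = 0.00713) and its difference of 0.56 was not called (adjusted p = 0.356).

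**Figure D2:**
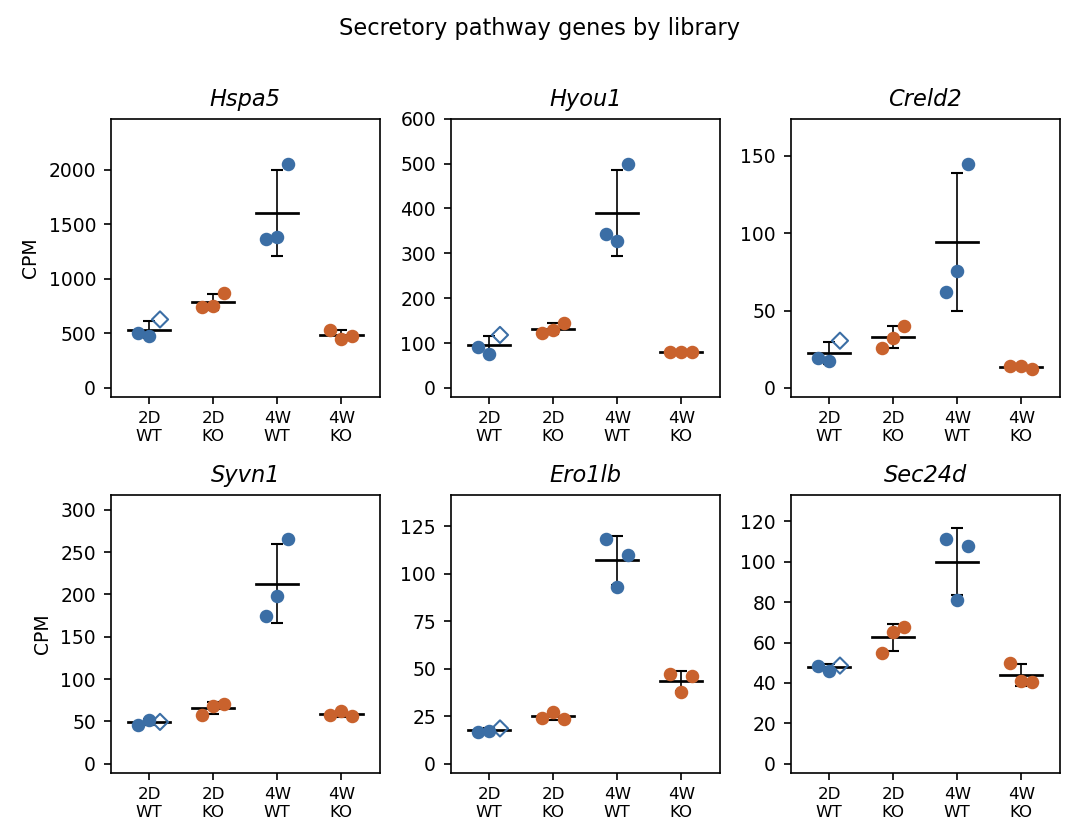
CPM of 6 genes of the secretory pathway in the 12 libraries, with WT in blue and KO in orange, the mean as a line and the SD as a bar. The open diamond is 2D WT replicate 3. In each panel the 3 libraries of 4W WT are the highest, from 81.1 CPM upward in Sec24d and from 1360 CPM in Hspa5.

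Genes of the steps that follow folding were read in 2 lists added after values had been seen, which therefore only describe. Of 31 subunits of the COPI and COPII coats, their cargo receptors and tethers, 10 had a positive difference and 0 a negative one (median 0.54). Of all genes 1.01% were positive. Without 2D WT replicate 3 the positive count was 12, beside 2.26% of all genes. The count was 5 without 2D WT replicate 2, 2D KO replicate 3, 4W WT replicate 3 or 4W KO replicate 3. Uso1, which tethers vesicles at the Golgi, stood at 78.9, 80.7 and 76.0 CPM in 2D WT, 94.2, 101 and 106 CPM in 2D KO, 150, 138 and 154 CPM in 4W WT and 88.4, 72.6 and 81.2 CPM in 4W KO, with a difference of 1.22 ± 0.16 [1.22] (adjusted p = 0.00234). Groups of the same time did not overlap. Copg1, a COPI coat subunit, had a difference of 1.16 (adjusted p = 0.00359), Lman1, a cargo receptor between ER and Golgi, one of 1.06 (adjusted p = 0.00485), and Sec24d, which selects cargo for COPII vesicles, one of 1.58 (adjusted p = 0.0184), lost without 2D WT replicate 2, 2D KO replicate 3, 4W WT replicate 3 or 4W KO replicate 3. Copg1 was different in level from the folding genes: 2D KO, at 106 to 110 CPM, reached into the range of 4W WT, at 93.4 to 119 CPM.

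Of 30 tested genes of the translocon and of N-glycosylation, 8 had a positive difference without 2D WT replicate 3, beside 2.26% of all genes. With all libraries 4 had one (median 0.55), beside 1.01% of all genes. They were Mlec, which binds glucosylated glycans in the ER (1.54, adjusted p = 0.0106), Ostc and Magt1, both subunits of the oligosaccharyltransferase (1.22, adjusted p = 0.0451, and 1.15, adjusted p = 0.00692), and Uggt1, which marks misfolded glycoproteins for another round of folding (1.09, adjusted p = 0.00885). The Ostc call held only without 2D WT replicate 3 or 4W WT replicate 1 and was lost with library size alone. Summed markers of hepatocytes, the cells in which these genes are most used, ranged from 113025 to 123783 CPM in 2D WT, 138012 to 154483 CPM in 2D KO, 116977 to 150109 CPM in 4W WT and 136298 to 164646 CPM in 4W KO. All 20 markers were present, and the part of hepatocyte content in these differences was not tested. In bulk libraries fewer cells of a type and less RNA per cell cannot be told apart.

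Cytosolic heat shock proteins followed the same order. Of 19 listed members 10 had a positive difference and 0 a negative one, beside 1.01% and 0.329% of all genes. The median was 1.3. Their median KO effect was 0.21 at 2D, with 0 called. At 4W it was −0.89, and 10 were called lower in KO, beside 1.96% of all genes. The count of differences was 11 without 2D WT replicate 3 (median 1.38), beside 2.26% of all genes called positive. With library size alone it was 7 (median 1.21). It was also 7 without 2D WT replicate 2, 4W WT replicate 3 or 4W KO replicate 3. Hsph1, Hspa1b, Hsp90aa1, Hspa8, Dnaja1, Dnajb1, Bag3, Stip1, Ahsa1 and Chordc1 made up the 10. Hspe1 and Hspd1, the chaperonin pair of mitochondria, had differences of 0.20 and 0.18 (adjusted p = 0.698 and 0.685).

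The heat shock elements searched were GAANNTTC and TTCNNGAA, each its own reverse complement, which can overlap. Of the 11 genes called with or without 2D WT replicate 3, 9 had a promoter in the table. Of these 6 held a match to either element (Hsph1, Hspa1b, Fkbp4, Dnaja1, Chordc1 and Bag3). Of all promoters of that length, GAANNTTC occurred in 7.86% and TTCNNGAA in 8.52%, and the share with either was not counted. The list was made of heat shock proteins and its uncalled members were not read. The comparison therefore says nothing about which genes had a different knockout effect. The promoters of Hsph1 (chr5:149636287-149636586, − strand) and Hspa1b (chr17:34959189-34959488, − strand), chosen in the same way, are shown 5′ to 3′ with matches in capitals. Hsph1 held 3 matches, 2 of them overlapping after the start site, and Hspa1b held 1, beginning 104 bases before it.
Hsph1: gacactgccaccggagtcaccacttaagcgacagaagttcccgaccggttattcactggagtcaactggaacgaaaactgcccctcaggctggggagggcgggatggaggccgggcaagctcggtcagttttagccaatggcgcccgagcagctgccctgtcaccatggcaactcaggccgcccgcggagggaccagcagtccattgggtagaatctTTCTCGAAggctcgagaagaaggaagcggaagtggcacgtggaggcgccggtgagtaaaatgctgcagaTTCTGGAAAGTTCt
Hspa1b: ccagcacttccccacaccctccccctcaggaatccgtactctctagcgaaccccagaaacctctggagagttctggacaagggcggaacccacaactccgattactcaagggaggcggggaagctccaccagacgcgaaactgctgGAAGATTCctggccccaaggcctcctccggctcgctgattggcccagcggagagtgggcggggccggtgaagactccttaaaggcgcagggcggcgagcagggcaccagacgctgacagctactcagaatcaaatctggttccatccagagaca

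Hsph1 encodes HSP110, which exchanges nucleotide on cytosolic HSP70. It stood at 10, 6.90 and 20.1 CPM in 2D WT and 24.8, 30 and 32.6 CPM in 2D KO, and at 103, 111 and 138 CPM in 4W WT and 28.4, 31.3 and 23.8 CPM in 4W KO. The 2 genotypes did not overlap at either time and their order turned. The difference was 3.31 ± 0.48 [3.88] (adjusted p = 0.00311), with −2.08 at 4W (adjusted p = 0.00386) and 1.23 at 2D (adjusted p = 0.0976). Its 2D effect was 1.78 and called without 2D WT replicate 3 (adjusted p = 0.00932). Hspa1b, the inducible HSP70, stood at 2.38, 3.80 and 8.47 CPM in 2D WT, 4.85, 7.94 and 6.15 CPM in 2D KO, 51.1, 42.2 and 61.8 CPM in 4W WT and 10, 11.5 and 11.4 CPM in 4W KO. Its difference was 2.60 ± 0.48 [3.28] (adjusted p = 0.0142), carried by 4W (−2.23, adjusted p = 0.00249), while its genotypes overlapped at 2D. Hspa1a is nearly identical in sequence, so the counting may have split reads between the 2 genes.

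Dnaja1, an HSP40 co-chaperone, stood at 149, 131 and 148 CPM in 2D WT, 159, 160 and 171 CPM in 2D KO, 277, 308 and 329 CPM in 4W WT and 132, 149 and 136 CPM in 4W KO. Its difference was 1.33 ± 0.19 [1.38] (adjusted p = 0.00311), almost all of it from 4W (−1.13, adjusted p = 0.000495). The HSP90 machinery moved along with it: Hsp90aa1, the inducible HSP90, had a difference of 1.68 (adjusted p = 0.00554), Stip1, which links HSP70 to HSP90, one of 1.32 (adjusted p = 0.00468), Chordc1, an HSP90 co-chaperone, one of 1.67 (adjusted p = 0.00468), and Ahsa1, an activator of its ATPase, one of 0.75 (adjusted p = 0.0184). Hspa8, the constitutive HSP70, had a difference of 1.62 (adjusted p = 0.00554). Bag3 and Dnajb1 had 1.11 and 1.3 (adjusted p = 0.0230 and 0.0283) and lost their call with library size alone. Their calls also held only without 2D WT replicate 3, 2D KO replicate 1, 4W WT replicate 1, 4W KO replicate 2 or, for Bag3, 4W KO replicate 1. Ahsa1 was lost with library size alone and without 2D WT replicate 2, 4W WT replicate 3 or 4W KO replicate 3. Fkbp4, an HSP90-bound immunophilin, was called when 2D WT replicate 3, and no other of the 12 libraries, was left out. With all libraries it was called by DESeq2, by limma-voom and by edgeR with no filter on low counts. Its 2D WT libraries stood at 77.6, 49.4 and 138 CPM and its 2D KO libraries at 122, 135 and 130 CPM, with 208, 222 and 240 CPM in 4W WT and 132, 119 and 128 CPM in 4W KO. The difference was 1.37 with all libraries (adjusted p = 0.0602) and 1.86 without 2D WT replicate 3 (adjusted p = 0.000926).

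A pair of RNA-binding proteins that cells make on cooling had the opposite sign. Cirbp stood at 47.1, 63.2 and 38.3 CPM in 2D WT, 19.8, 25.7 and 22.1 CPM in 2D KO, 13, 11.9 and 8.46 CPM in 4W WT and 28.5, 23.6 and 19.2 CPM in 4W KO. Here 4W WT was lowest and 2D WT highest, and genotypes did not overlap at either time. The difference was −2.23 ± 0.38 [−2.37] (adjusted p = 0.00885), with −1.14 at 2D (adjusted p = 0.0596) and 1.09 at 4W (adjusted p = 0.0389). Rbm3, named after its values were seen, stood at 129, 138 and 93.5 CPM in 2D WT, 79.8, 61.9 and 68.0 CPM in 2D KO, 20.2, 24.3 and 24.4 CPM in 4W WT and 30.7, 39.2 and 29.1 CPM in 4W KO. Its difference was −1.31 ± 0.25 [−1.44] (adjusted p = 0.0177), and the call was lost without 2D WT replicate 1 or 2 or 2D KO replicate 2 or 3.

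**Figure D3:**
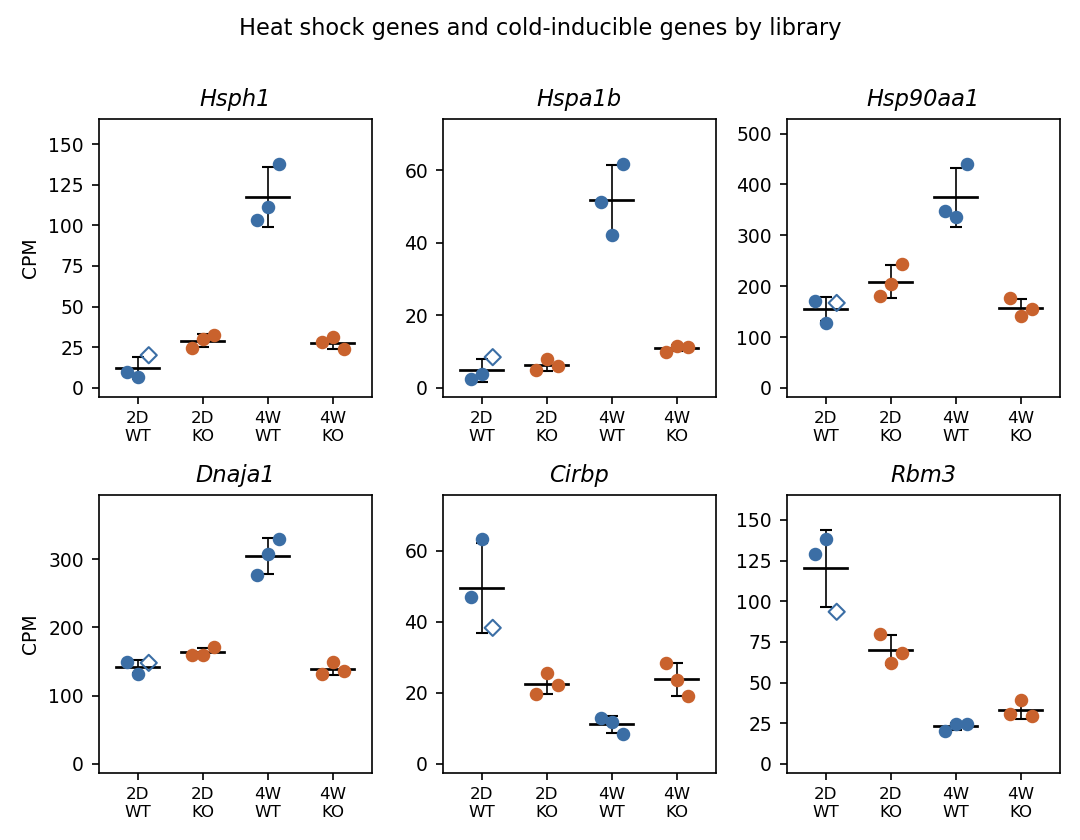
CPM of 4 heat shock genes (Hsph1, Hspa1b, Hsp90aa1 and Dnaja1) and 2 cold-inducible genes (Cirbp and Rbm3) in the 12 libraries, with WT in blue, KO in orange, the mean as a line and the SD as a bar. The open diamond is 2D WT replicate 3. The heat shock genes are highest in 4W WT, where Cirbp and Rbm3 are lowest, at 8.46 to 13 CPM and 20.2 to 24.4 CPM.

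Interferon response genes leaned to a positive difference, with calls in 3 of 28 members, beside 1.01% of all genes. The median was 1.02 and the difference lay above 0 in all 28, as it did in 6838 of the 14877 genes tested. Stat2, a subunit of the transcription factor that type I interferon activates, stood at 55.4, 51.1 and 54.8 CPM in 2D WT, 97, 84.8 and 87.3 CPM in 2D KO, 116, 126 and 109 CPM in 4W WT and 89.5, 81.0 and 79.2 CPM in 4W KO. It was called at both times in opposite directions, at 0.74 at 2D (adjusted p = 0.0220) and −0.49 at 4W (adjusted p = 0.0353), with a difference of 1.23 ± 0.17 [1.26] (adjusted p = 0.00238). Irf9, the DNA-binding partner of Stat2, had a difference of 1.01 (adjusted p = 0.0401), and its call held only without 2D WT replicate 3 or 2D KO replicate 3 and was lost with library size alone.

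Dhx58, a cytosolic sensor of viral RNA, stood at 2.11, 1.65 and 2.64 CPM in 2D WT, 5.20, 4.11 and 3.26 CPM in 2D KO, 18.4, 23.5 and 16.8 CPM in 4W WT and 9.09, 11 and 10.8 CPM in 4W KO. Its difference was 1.89 ± 0.31 [2.09] (adjusted p = 0.00725), with no overlap at either time. Oas3, which makes the messenger that activates RNase L, had a larger difference at lower levels (3.04, adjusted p = 0.0307), with 0.25 to 0.417 CPM in 2D WT, 0.611 to 1.97 CPM in 2D KO, 3.91 to 4.88 CPM in 4W WT and 1.06 to 2.17 CPM in 4W KO. The call was lost with limma-voom and held only without 2D WT replicate 3, 2D KO replicate 2 or 3, 4W WT replicate 1 or 4W KO replicate 2.

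The interferon count was 2 or 3 without any 1 of the 2D and 4W libraries except 2D WT replicate 3. Without that library it was 12 (median 1.26), beside 2.26% of all genes called positive. The 2 remaining 2D WT libraries had the lowest levels for several of these genes. Ifi44, an interferon-induced gene, stood at 0.0897, 0.400 and 1.71 CPM in 2D WT, the first of them under the floor of 3 counts, against 2.83, 1.67 and 1.18 CPM in 2D KO, 10.6, 15.9 and 10.8 CPM in 4W WT and 5.61, 6.13 and 6.48 CPM in 4W KO. The difference was 2.39 with all libraries (adjusted p = 0.141) and 4.01 without 2D WT replicate 3 (adjusted p = 0.00843). Isg15, a ubiquitin-like protein that interferon induces, went from 2.29 (adjusted p = 0.0595) to 2.69 (adjusted p = 0.0246), Ifit1 from 2.21 (adjusted p = 0.0741) to 2.81 (adjusted p = 0.0191) and Rtp4 from 1.44 (adjusted p = 0.0835) to 1.97 (adjusted p = 0.00526). Macrophage and Kupffer cell markers summed to 573 to 976 CPM in 2D WT, 622 to 895 CPM in 2D KO, 718 to 819 CPM in 4W WT and 499 to 1265 CPM in 4W KO, with 0 of 17 tested members called. Neutrophil markers summed to 61.2 to 137 CPM in 2D WT, 68.5 to 125 CPM in 2D KO, 2.60 to 6.39 CPM in 4W WT and 6.94 to 20.3 CPM in 4W KO, with 0 of 11 called and a median difference of −1.82. MHC class II genes summed to 46.5 to 123 CPM in 2D WT, 97.6 to 150 CPM in 2D KO, 152 to 181 CPM in 4W WT and 286 to 430 CPM in 4W KO, with 0 of 7 called. For both lists 4W KO lay wholly above 4W WT. The part of these cells in the interferon values was not tested.

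Among genes that the liver makes in fasting, 3 of 18 listed members had a negative difference and 0 a positive one, with a median of −0.83, while 0.329% of all genes were negative. The count was 0 without 2D WT replicate 2, 2D KO replicate 2 or 3, or 4W WT replicate 2 or 3, and 1 without 4W KO replicate 3. Igfbp1 encodes a binding protein of insulin-like growth factors that insulin represses. It stood at 1667, 2966 and 1011 CPM in 2D WT, 757, 895 and 1010 CPM in 2D KO, 57.1, 14.5 and 20.2 CPM in 4W WT and 302, 209 and 459 CPM in 4W KO. The difference was −4.49 ± 0.92 [−4.77] (adjusted p = 0.0241), the largest negative one of the called genes named by rule, with 3.40 at 4W (adjusted p = 0.0133) and −1.08 at 2D (adjusted p = 0.434). It kept its sign but lost its call without 2D WT replicate 2, any 1 of the 2D KO libraries, 4W WT replicate 2 or 3, or 4W KO replicate 3.

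Tat, the first enzyme of tyrosine breakdown, stood at 2138, 3116 and 929 CPM in 2D WT, 831, 392 and 549 CPM in 2D KO, 907, 676 and 769 CPM in 4W WT and 1748, 1255 and 1101 CPM in 4W KO. Its difference was −2.61 ± 0.51 [−2.93] (adjusted p = 0.0186), carried by 2D (−1.8, adjusted p = 0.0388), and was lost without 2D WT replicate 2, 2D KO replicate 2 or 3, or 4W WT replicate 2 or 3. Ppargc1a, the co-activator of gluconeogenic genes, stood at 64.7, 86.6 and 33.3 CPM in 2D WT, 38.6, 13.6 and 17.7 CPM in 2D KO, 12.3, 7.21 and 8.26 CPM in 4W WT and 23.6, 18 and 15.8 CPM in 4W KO. Its difference was −2.45 ± 0.53 [−2.72] (adjusted p = 0.0307), kept without 2D WT replicate 3, 2D KO replicate 1 or 4W WT replicate 1 and lost without any other of the 12.

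With 2D WT replicate 3 left out the fasting count was 7 (median −1.05), beside 1.25% of all genes called negative in that fit. Got1, Foxo1, Per1 and Sgk1 were added. Sgk1, a kinase induced by glucocorticoids, stood at 160, 200 and 81.9 CPM in 2D WT, 94.1, 76.6 and 136 CPM in 2D KO, 13.3, 14.7 and 17.6 CPM in 4W WT and 46.3, 41.1 and 46.2 CPM in 4W KO, with a difference of −2.08 (adjusted p = 0.0535) that became −2.35 (adjusted p = 0.0136). Pck1, a key enzyme of gluconeogenesis, was not called (−1.74, adjusted p = 0.243). Feeding state and hour of sampling are not given in the sources used here.

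Other genes with a large negative difference belonged to other lists or to none. Vldlr, a lipoprotein receptor that is also a target of the integrated stress response, stood at 24.9, 20.1 and 22.4 CPM in 2D WT, 9.55, 10.2 and 10.7 CPM in 2D KO, 6.08, 7.97 and 7.94 CPM in 4W WT and 21.4, 19.9 and 24.6 CPM in 4W KO. The group levels crossed, with a difference of −2.73 ± 0.52 [−2.71] (adjusted p = 0.0159). It was the only called member of 18 in the integrated stress response list, and its RefSeq promoter held no TGATGNAAT, a match found in 0.965% of promoters. Cd9, a membrane tetraspanin, stood at 47.5, 63.2 and 54.1 CPM in 2D WT, 29.6, 29.2 and 30.5 CPM in 2D KO, 20.1, 19.8 and 20.3 CPM in 4W WT and 37.5, 29.4 and 32.7 CPM in 4W KO. It was called at both times in opposite directions (−0.88, adjusted p = 0.0220, and 0.73, adjusted p = 0.0159), with a difference of −1.61 ± 0.21 [−1.6] (adjusted p = 0.00234). KO libraries of both times stood at 29.2 to 37.5 CPM, between the WT groups.

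Fzd6, a Wnt receptor, stood at 10.5, 12.1 and 18.4 CPM in 2D WT, 6.82, 7.94 and 8.08 CPM in 2D KO, 2.39, 2.81 and 2.8 CPM in 4W WT and 9.59, 7.37 and 10.7 CPM in 4W KO, with a difference of −2.63 ± 0.34 [−2.33] (adjusted p = 0.00234). Zc3h6, a zinc finger protein, had a difference of −3.90 (adjusted p = 0.00885), with 0.390 to 0.760 CPM in 4W WT and 2.11 to 4.36 CPM in 4W KO. Nipal1, a magnesium transporter, had −2.93 (adjusted p = 0.0201) and Tff3, a secreted trefoil peptide on the bile duct list, −3.19 (adjusted p = 0.0467). The Tff3 call was lost with limma-voom and held only without 2D WT replicate 3, of the 12 libraries left out in turn. Pde4d, a cAMP phosphodiesterase, stands in the table under 2 gene identifiers on chromosome 13, and both were called (−2.43, adjusted p = 0.0348, and −1.73, adjusted p = 0.0283). The first call was lost with limma-voom and held only without 2D WT replicates 1 or 3 or 4W KO replicate 2, and that of Nipal1 only without 2D WT replicate 1 or 3, 4W WT replicate 1 or 4W KO replicate 1 or 2. In the sinusoidal endothelial list, Bmp2 and Fcgr2b were called (−1.39, adjusted p = 0.0241, and −0.95, adjusted p = 0.0417) of 17 members. Of all genes 0.329% had a negative difference. Bmp2 lost its call without 2D WT replicate 2, 2D KO replicate 2 or 3, 4W WT replicate 1 or 2 or 4W KO replicate 3. Fcgr2b lost it with no filter on low counts and held only without 2D WT replicate 3, 2D KO replicate 3 or 4W KO replicate 1. The summed markers of these cells were at 774 to 881 CPM in 2D WT, 501 to 724 CPM in 2D KO, 557 to 575 CPM in 4W WT and 499 to 815 CPM in 4W KO.

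**Figure D4:**
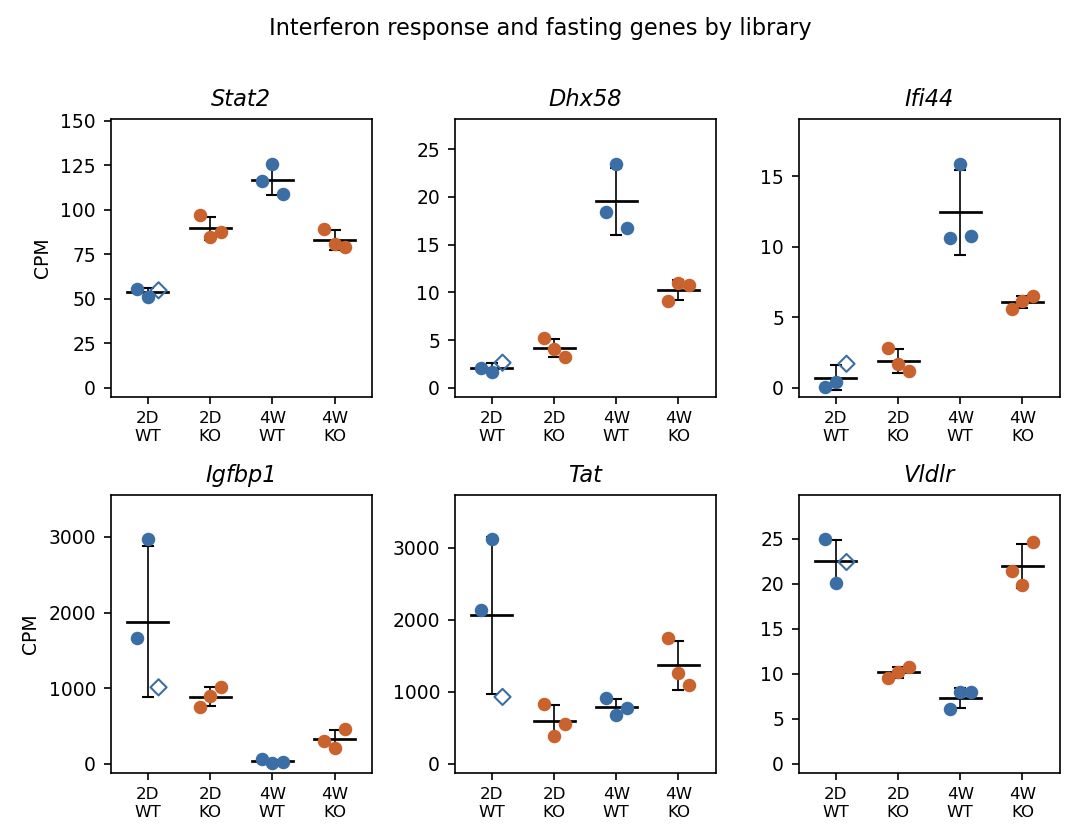
CPM of 3 interferon response genes (Stat2, Dhx58 and Ifi44) and of Igfbp1, Tat and Vldlr in the 12 libraries, with WT in blue, KO in orange, the mean as a line and the SD as a bar. The open diamond is 2D WT replicate 3, which lies below the other 2D WT libraries for Tat, at 929 CPM, and above the other 2D WT libraries for Ifi44, at 1.71 CPM.

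Several genes with a large positive difference stand outside the stress lists. Inhbe, the activin subunit that hepatocytes secrete, stood at 10, 7.30 and 6.53 CPM in 2D WT, 22.1, 38.9 and 32 CPM in 2D KO, 52.4, 85.8 and 65.6 CPM in 4W WT and 44.7, 37.7 and 40.0 CPM in 4W KO. Its difference of 2.70 ± 0.47 [2.59] (adjusted p = 0.00903) came mostly from 2D (1.96, adjusted p = 0.0220). Ide, the insulin-degrading enzyme, was called at 2D and not at 4W, at 50.0, 43.8 and 50.1 CPM in 2D WT, 128, 137 and 130 CPM in 2D KO, 177, 150 and 169 CPM in 4W WT and 215, 169 and 176 CPM in 4W KO. The 2D effect was 1.45 (adjusted p = 6.34e-05), that of 4W 0.18 (adjusted p = 0.509), and the difference 1.28 ± 0.18 [1.33] (adjusted p = 0.00278).

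Tsku, a secreted protein of the liver, was lower in KO throughout. It stood at 68.1, 63.0 and 33.5 CPM in 2D WT, 14.6, 13.8 and 15 CPM in 2D KO, 52.2, 139 and 146 CPM in 4W WT and 3.11, 3.42 and 2.35 CPM in 4W KO. Its positive difference of 3.32 ± 0.67 [3.09] (adjusted p = 0.0221) measures a larger loss at 4W (−5.24, adjusted p = 8.23e-05) than at 2D (−1.92, adjusted p = 0.0627), and was lost with limma-voom and without 4W WT replicate 2 or 3 or 4W KO replicate 3. Selenbp2, a selenium-binding protein on the male-biased list, stood at 24.8, 38.1 and 97.4 CPM in 2D WT, 112, 70.0 and 51.6 CPM in 2D KO, 1147, 510 and 650 CPM in 4W WT and 62.2, 129 and 143 CPM in 4W KO. The difference was 3.33 ± 0.70 [4.11] (adjusted p = 0.0283), a call that held only without 2D WT replicate 3, 2D KO replicate 3 or 4W WT replicate 2. Its close relative Selenbp1 may share its reads. Bcl3, an IκB relative that acts with NF-κB in the nucleus, was called at both times in opposite directions, at 11.3, 8.10 and 18.6 CPM in 2D WT, 29.4, 23.8 and 35.6 CPM in 2D KO, 49.4, 41.5 and 45.4 CPM in 4W WT and 26.8, 21.8 and 17.2 CPM in 4W KO. Its effects were 1.22 (adjusted p = 0.0444) and −1.05 (adjusted p = 0.0386), and the difference was 2.27 ± 0.37 [2.68] (adjusted p = 0.00672).

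The 3 forkhead factors that open chromatin at liver genes were also called. Foxa1 stood at 9.24, 5.95 and 7.69 CPM in 2D WT, 10.8, 12.2 and 9.46 CPM in 2D KO, 52.8, 44.8 and 42.3 CPM in 4W WT and 22.7, 24.6 and 19.4 CPM in 4W KO. It had a difference of 1.57 ± 0.22 [1.59] (adjusted p = 0.00311), and those of Foxa2 and Foxa3 were 1.64 and 1.12 (adjusted p = 0.0445 and 0.0417). The calls of Foxa2 and Foxa3 were lost with library size alone, and that of Foxa2 also with limma-voom. Foxa2 held only without 2D WT replicate 1 or 3 or 2D KO replicate 3, and Foxa3 only without 2D WT replicate 3 or 2D KO replicate 1. Foxa3 was named after its values were seen.

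Of 46 listed NRF2 targets 1 had a called difference, with a median of 0.32, beside 1.34% of all genes called. The median KO effect was −0.72 at 2D, with 7 called lower, beside 0.242% of all genes. At 4W it was −1.10, with 22 called lower and 0 higher, beside 1.96% and 0.995% of all genes. The count at 4W was 10 without 4W WT replicate 3, 13 without 4W WT replicate 2, and 14, 11 and 12 without 4W KO replicates 1, 2 and 3. In the fit without 2D WT replicate 3, 14 were called lower at 2D, beside 1.72% of all genes. The difference was again called in 1, beside 3.5% of all genes. The gene was Ugt2b35, a UDP-glucuronosyltransferase. It stood at 68.0, 51.7 and 55.8 CPM in 2D WT, 32, 40.8 and 40.0 CPM in 2D KO, 145, 148 and 165 CPM in 4W WT and 33.5, 35.7 and 30.6 CPM in 4W KO. Levels of KO at the 2 times lay close together and those of WT apart. Its difference was 1.56 ± 0.29 [1.55] (adjusted p = 0.0131), its family members are similar in sequence and may share reads, and its RefSeq promoter held no TGACNNNGC, the antioxidant response element, which 12.4% of promoters held. A target without a call is not shown to have had the same effect at both times: in simulated data the test recovered 25 of 100 genes whose effect differed 2-fold and 71 of 100 that differed 4-fold.

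In lipid and clock lists a few members were called with a positive difference, beside 1.01% of all genes. In cholesterol synthesis these were 2 of 24 (median 0.51), among them Sqle, the squalene epoxidase. Sqle stood at 4.26, 2.35 and 5.05 CPM in 2D WT, 6.31, 6.05 and 5.15 CPM in 2D KO, 80.1, 120 and 110 CPM in 4W WT and 49.6, 45.0 and 48.7 CPM in 4W KO, with a difference of 1.69 ± 0.37 [1.95] (adjusted p = 0.0313) that was lost with limma-voom and held only without 2D WT replicate 3 or 4W WT replicate 1. Among clock genes Bhlhe40 and Per2 were called (1.3, adjusted p = 0.0193, and 1.71, adjusted p = 0.0428) of 18, and both calls were lost with library size alone. Per2 was also lost with limma-voom and held only without 2D WT replicate 3 or 4W WT replicate 1, and Bhlhe40 was lost without 2D KO replicate 3, 4W WT replicate 2 or 4W KO replicate 2 or 3. Saa4, an acute phase apolipoprotein, was the only call of 25 in its list (1.28, adjusted p = 0.0308), and it was lost with library size alone and without 7 of the 12 libraries.

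Lists with 0 called members included immediate early genes, chemokines, fatty acid synthesis and oxidation, p53 targets, cell cycle genes, drug-metabolising cytochromes, bile acid genes, metallothioneins, female-biased genes, and the pericentral and periportal genes of the hepatocyte. The cell cycle list had a median of 0.61 over 34 genes. Without 2D WT replicate 3, 2 of them, Ccnd1 and Cdc6, were called (2.75, adjusted p = 0.0292, and 1.84, adjusted p = 0.0493). In that fit 3.5% of all genes were called, 2.26% with a positive and 1.25% with a negative difference. Of 26 p53 targets Trp53inp1 and Ei24 were called without that library (−1.56, adjusted p = 0.0206, and −0.61, adjusted p = 0.0485). Of 17 pericentral genes 2 were called without it, among them Gulo (1.24, adjusted p = 0.0246). In fatty acid oxidation 4 of 27 were called without it: Fabp1, the fatty acid binding protein of the liver (1.77, adjusted p = 0.0451), and with a negative sign Cyp4a31 (−1.70, adjusted p = 0.0475), Acot1, a thioesterase (−2.22, adjusted p = 0.0446), and Pdk4, which inhibits pyruvate dehydrogenase (−2.35, adjusted p = 0.0485). Among metallothioneins and zinc transporters it was the zinc exporter Slc30a1 (−0.62, adjusted p = 0.0393).

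Slc22a7, an organic anion transporter, and Aacs, which activates acetoacetate, were named by rule from the fit without 2D WT replicate 3 and were not called with all libraries. Slc22a7 stood at 5.11, 7.10 and 48.4 CPM in 2D WT, 25.3, 26.7 and 18.2 CPM in 2D KO, 30.1, 27.8 and 28.3 CPM in 4W WT and 8.78, 8.67 and 13.2 CPM in 4W KO. Its 2D WT replicate 3 lay above all others, and the difference was 1.70 with it (adjusted p = 0.359) and 3.44 without it (adjusted p = 0.00692). Aacs had 3.14 (adjusted p = 0.0155) and was also called without 4W WT replicate 1. Ces4a, a carboxylesterase, was at 0 to 0.303 CPM in the 2D libraries, mostly at or near the floor of 3 counts, so that no fold is given. On the negative side Phf11c, Trp53cor1 and Hic2 had −3.08, −2.89 and −2.69 (adjusted p = 0.0181, 0.0481 and 0.0194). Phf11c rested on 2D WT replicate 2, at 44.8 CPM against 12.8 and 5.28 CPM in the other 2D WT libraries.

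Markers of connective and bile duct cells showed how far 2D WT replicate 3 reaches. The median difference was −0.86 over 19 collagen and stellate genes and −2.01 over 11 tested bile duct genes with all libraries, and −0.15 and −0.18 without it. Col1a1, the main fibrillar collagen, stood at 64.8, 89.3 and 1190 CPM in 2D WT, 102, 103 and 163 CPM in 2D KO, 85.2, 51.9 and 47.3 CPM in 4W WT and 30.7, 36.3 and 276 CPM in 4W KO. Its difference was −2.77 (adjusted p = 0.313), and −0.21 without that library (adjusted p = 0.948). No member of the collagen list was called with all libraries, and Lrat, a retinol enzyme of stellate cells, was called without it (1.59, adjusted p = 0.0394).

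**Figure D5:**
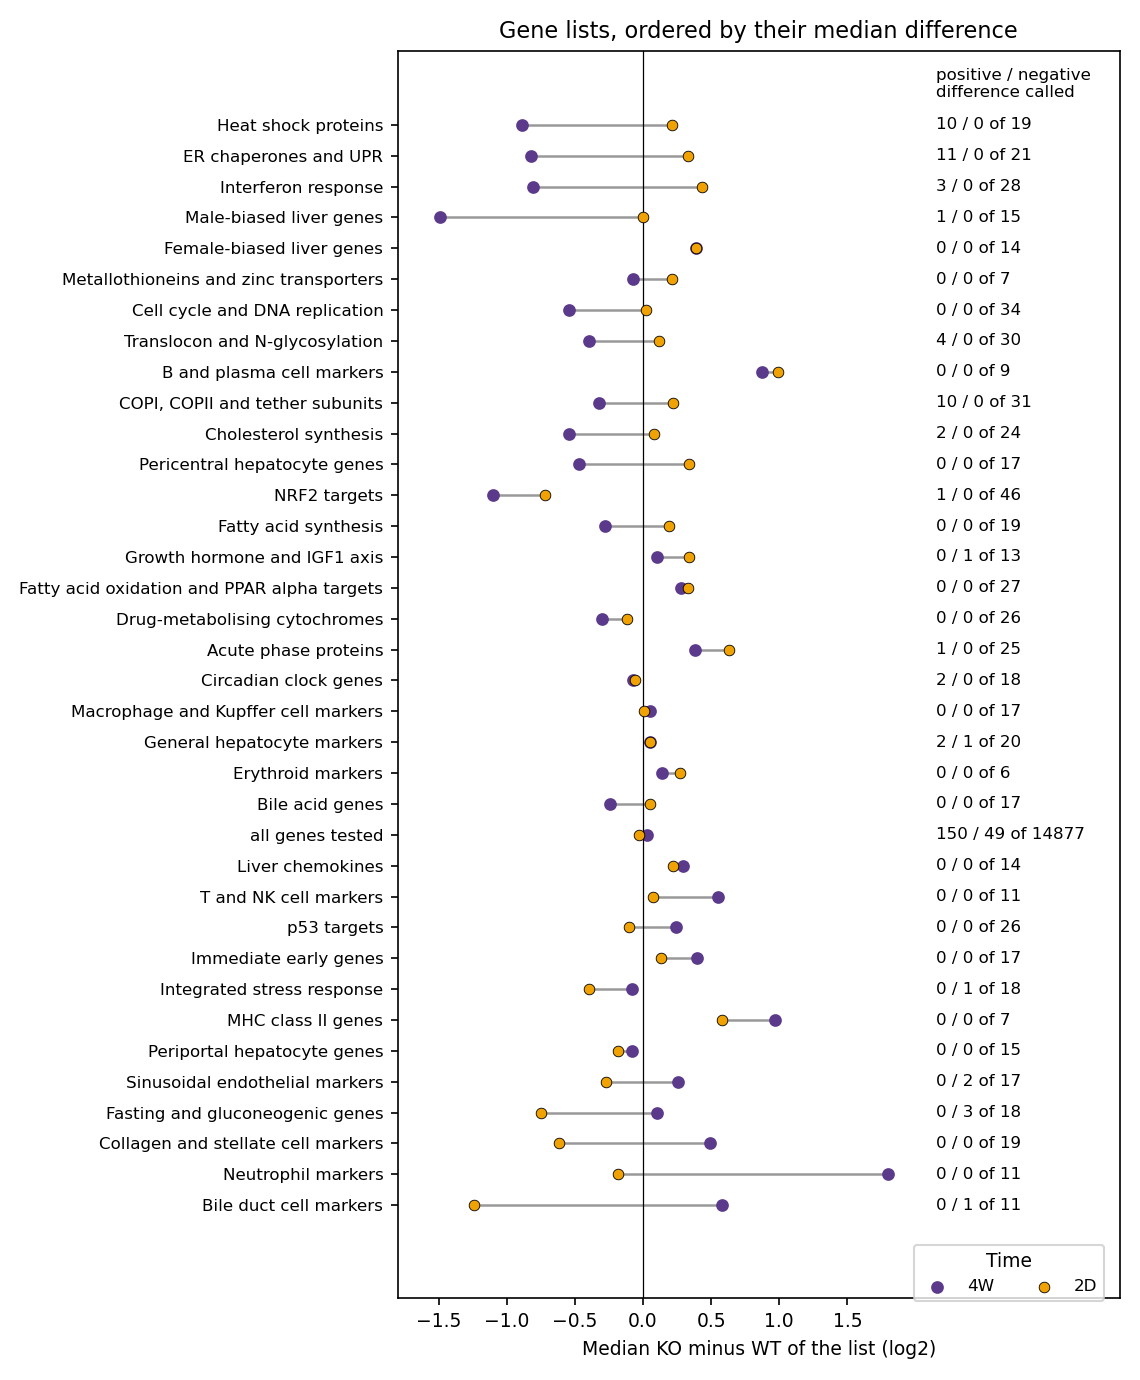
Median KO minus WT (log2) of each gene list with at least 5 members tested, at 4W (purple) and at 2D (yellow), ordered by the median difference over the list's genes, which need not equal the gap between the 2 medians. The numbers to the right give the genes called with a positive and a negative difference of those tested, such as 10 and 0 of 19 heat shock proteins.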

How the data were processed

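Liver RNA of 18 mouse libraries was measured as read counts per gene, deposited by the authors as 1 table of 35275 genes. Per the submitters' processing notes, STAR 2.5, HTSeq and DESeq2 were used with mm10; what each did is not given. Strand and counting rules are not given in the sources used here. The counts, 15.3 to 24.2 M per library, were tested as deposited with edgeR 4.0.16 in R 4.3.3: TMM scaling, filterByExpr, 6 group means and the quasi-likelihood test, with Benjamini-Hochberg adjustment over all genes. Levels are TMM-scaled CPM.

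Fits used all 18 libraries, or 17 without 2D WT replicate 3. Alternatives were limma-voom (limma 3.58.1), DESeq2 1.42.0, other scalings and filters, a replicate block, the 2D and 4W libraries alone, and each library left out in turn. The members and the 35 lists were chosen with earlier results of these data known, and 2 more lists were added after values were seen. Genes were named by rule: in each of the 2 tests the 10 largest called differences in each direction, with a mean log2 CPM of at least 1, no overlap of KO and WT at 1 or both times and no clone-type name, and up to 4 called members of each list by p, or the first where none was called. Non-overlap is thus partly a result of the choice. Other members were named to complete a list, and the remaining genes after their values were seen. A fit to simulated counts of 14877 genes recovered 25 of 100 changes of 2-fold and 71 of 100 of 4-fold, with 5.88% of its calls on unchanged genes. Without 2D WT replicate 3 such a fit recovered 21 and 72, with 8.82% of its calls on unchanged genes. Changed genes were drawn only above a minimum mean count, so recovery at lower counts was not measured. Promoters are RefSeq's of GRCm38.p6. With 3 libraries a group an exact permutation test of a single gene cannot go below p = 0.1, and the edgeR test borrows its spread from all genes. 27 names in the table had been turned into dates and 122 rows share a name. Some results are not reported here because they name withheld items.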

Additional observations from a re-analysis of the deposited data

Results flagged for a closer look

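The effect of the knockout differed between 2D and 4W by a direct test of the difference in 199 genes with all libraries and in 531 without 2D WT replicate 3. Stat2, Cd9 and Bcl3 were in addition called in KO against WT at both times in opposite directions. Their differences were 1.23 for Stat2, −1.61 for Cd9 and 2.27 for Bcl3, and each held without any 1 of the 12 libraries. The calls at 2D are less firm, since KO against WT at 2D was called in 2 to 4 genes without any 1 of the 5 2D libraries other than 2D WT replicate 3. In all, 28 genes were called at both times in opposite directions with all libraries or without 2D WT replicate 3, and 3 of them with all libraries.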

How the results depend on the processing

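Of 119 named genes, 68 were called. Of these, 49 were called under all 8 other settings and 38 also without each of the 12 libraries in turn. Over 2376 values of named genes under alternatives, 0 reversed a called direction. The 2376 include genes not called, for which a change of sign was not counted. Among these, Marco went from −2.28 to as high as 0.12 and Acta1 from 2.48 to as low as −1.38. The count of 199 with all libraries was 621 with DESeq2, 371 with the 2D and 4W libraries alone, 125 with library size alone and 194 with the replicate block. The 531 without 2D WT replicate 3 were 994, 1062, 350 and 411 under those settings, and 318 when a difference of at least 1 was asked for, a threshold chosen after seeing the data. KO against WT at 2D gave 564 with DESeq2, 410 with the 2D and 4W libraries alone and 64 with the replicate block, against 101. Without 2D WT replicate 3 it gave 1200 with DESeq2 and 1512 with the 2D and 4W libraries alone, against 628. At 4W DESeq2 gave 851, against 439. Deviations of same-numbered libraries correlated at −0.112 to 0.23, highest between replicate 3 of 2D WT and of 2D KO. The libraries were treated as unpaired except under the replicate block. The block ended the calls of Foxa2, Per2, Hsp90b1 and Tff3 among the 68.

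Leaving out 1 library gave 82 (without 4W WT replicate 3) to 531 (without 2D WT replicate 3) differences with all libraries. It gave 38 (without 2D WT replicate 2) to 500 (without 4W WT replicate 1) when 2D WT replicate 3 was already out. For KO against WT at 2D the range was 2 (without 2D WT replicate 2) to 628, and 12 (without 2D WT replicate 2) to 579 with 2D WT replicate 3 out. At 4W it was 143 (without 4W WT replicate 3) to 643 (without 2D WT replicate 3). Where 1 library of a group is left, it is assumed to vary like the other groups. The cause of these shifts was not tested. Depth of 16.3 to 19.6 M counts limits genes near 3 counts, 0.153 to 0.184 CPM.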

Other observations

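At 36 weeks, which the comparison does not use, Hspa5 stood at 1105, 2380 and 2157 CPM in WT and 2331, 2438 and 2553 CPM in KO. Creld2 stood at 47.4, 100 and 115 CPM in WT and 108, 99.6 and 131 CPM in KO, and Hsph1 at 37.7, 89.8 and 46.8 CPM in WT and 29.3, 42.1 and 29.3 CPM in KO. The genotypes overlapped for all 3 of these genes. Stat2 stood at 86.4, 65.0 and 87.3 CPM in WT and 85.7, 74.0 and 72.7 CPM in KO. Igfbp1 stood at 207, 2125 and 1127 CPM in WT and 1747, 2811 and 2853 CPM in KO, levels far from those of 4W WT, at 14.5 to 57.1 CPM.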
